A study of Mus musculus with 8 samples.

Results

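The genes described here make and use arginine around the inducible nitric oxide synthase: Nos2, Gch1, Slc7a2, Ass1, Asl, Arg1, Arg2 and Odc1. They were taken by symbol from the deposited count table through the GENCODE mouse M21 annotation, and all 8 were found once among its 55450 genes. The table comes from RAW264.7, a mouse macrophage-like line derived from a virus-induced tumour, sequenced as total RNA in 8 libraries. One line carried a non-silencing shRNA (shNS) and the other an shRNA against Dis3l2 (shDis3l2), an exoribonuclease that degrades uridylated RNA. Each line gave 3 libraries after 4 days with doxycycline at 1 µg/mL, the drug commonly used to switch on an shRNA, and 1 library without it. The labels do not say whether either line is a clone or whether the replicates were separate cultures, so p-values measure the spread between these libraries, which may be technical.

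Nitric oxide synthase turns arginine into nitric oxide and citrulline, and it needs tetrahydrobiopterin as a cofactor. Macrophages raise Nos2 on exposure to bacterial products and interferon-gamma, whereas interleukin-4 raises Arg1, whose enzyme splits the same arginine into ornithine and urea. Ornithine feeds polyamine synthesis, and citrulline can be rebuilt into arginine by the enzymes of Ass1 and Asl.

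The libraries held 30341823 to 45557804 counts. Levels are given as CPM, the counts set to a common library total after scaling by edgeR's TMM factors, unless stated otherwise. The 9 macrophage markers summed to 5820 to 10800 CPM, while the lists for T cells, B cells, fibroblasts, endothelial and epithelial cells summed to at most 1.24 CPM in any library. Not every macrophage marker was detected in both lines. Mertk was at 0 in every shDis3l2 library, and in shNS at 0.598, 41.5 and 0.892 CPM with doxycycline and 46.6 CPM without. Adgre1 was at 63.05 to 120.6 CPM in the shNS libraries and 5.01 to 25.85 CPM in the shDis3l2 libraries. The libraries of shNS with doxycycline did not lie together. On the first principal component replicate 2 lay at -106.5, beside the shNS library without doxycycline at -102.2, and replicates 1 and 3 at -15.3 and -23.7. Dis3l2 itself was at 33.0, 28.6 and 22.0 CPM in shNS replicates 1, 2 and 3 with doxycycline and at 12, 13.5 and 14.9 CPM in shDis3l2 (log2 fold change -1.05, SE 0.188; edgeR adjusted p = 0.0216). Without doxycycline it was at 29.6 CPM in shNS and 28.6 CPM in shDis3l2, so the untreated libraries compare the lines at like Dis3l2 levels.

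Nos2 was detected mainly in shNS cells given doxycycline and fell to almost nothing in shDis3l2. Ass1 was about 11-fold higher in shDis3l2 by its point estimate, but did not pass the test. Asl, Gch1 and Odc1 did not pass either. Arg1, Arg2 and Slc7a2 were too low to be tested. Of the 5 genes that passed the filter on low counts 1 was called, in the downward direction, where 4.01% of the 13752 genes tested were called lower, 2.13% higher and 6.14% in either direction. The 3 genes whose groups of 3 did not overlap were Nos2 and Asl, lower, and Ass1, higher. Among all genes tested 27.7% had groups that did not overlap, 14.6% lower and 13.2% higher. The median log2 fold change of the 5 genes was 0.09, beside -0.0023 over all genes tested.

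Which arginine genes were called depended on the fit. Nos2 alone was called with library size alone (5.96% of all genes called), with the replicate number as a block (3.06%), with doxycycline as a covariate over 8 libraries (9.70%) and without shNS replicate 1 (8.24%). DESeq2 (12.7% of all genes called) and limma-voom (6.18%) called Nos2 and Ass1. Without shNS replicate 2 (6.45%) edgeR called Nos2 and Arg2, and without shNS replicate 3 (5.57%) it called Ass1 alone. It called 0 of the 8 without the low-count filter (3.95%), with a filter of 1 CPM in 3 libraries (6.29%), with all 8 libraries as 4 groups (4.87%) and without shDis3l2 replicate 1 (3.31%), 2 (1.44%) or 3 (1.83%). Unadjusted, 3 of the 5 had p under 0.05 in the reported fit, as did 2864 of all 13752 genes tested.

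**Figure D1:**
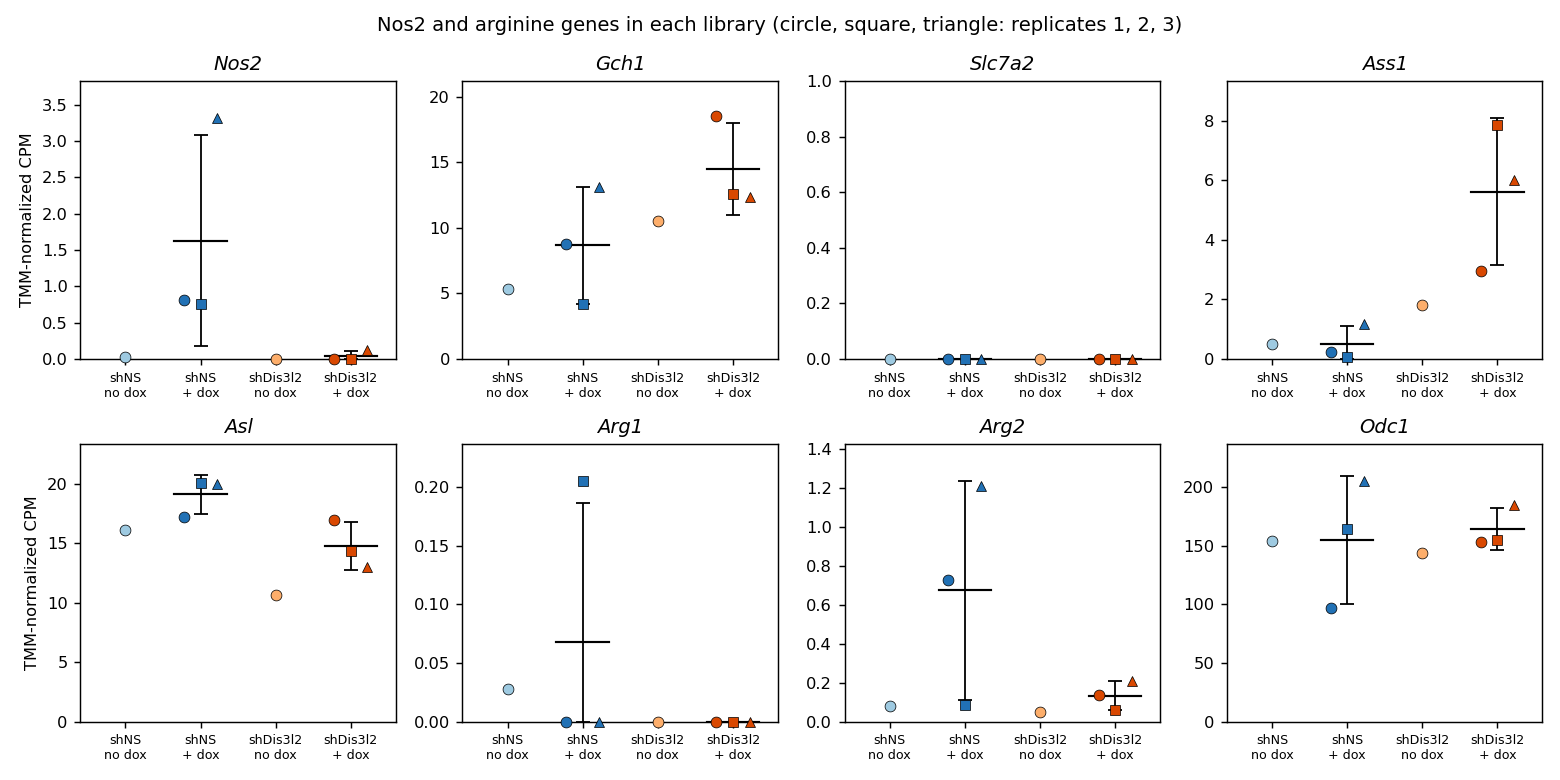
TMM-normalized CPM (y axis, a linear scale of its own in each panel) of the 8 arginine genes in each of the 8 libraries (x axis, by line and doxycycline); points are libraries, and where there are 3 the line and bar give mean and SD, cut at 0. Nos2 stands above 0.7 CPM only in the 3 shNS libraries with doxycycline, Ass1 is higher in every shDis3l2 library than in any shNS library, and Slc7a2 is at 0 throughout.

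Nitric oxide synthesis came first. Nos2 (ENSMUSG00000020826, chromosome 11, 78920787 to 78960254, plus strand, GRCm38) encodes the inducible synthase. It had 26, 26 and 115 counts in shNS replicates 1, 2 and 3 with doxycycline, and 0, 0 and 4 counts in the shDis3l2 replicates. All shNS values with doxycycline lay above all shDis3l2 values, and the gene passed the filter through the shNS libraries alone. In CPM these were 1.63 ± 1.46 in shNS and 0.0394 ± 0.0682 in shDis3l2 (SD, n = 3 in each). The ratio of summed counts was 46.4-fold lower in shDis3l2, with a 95% counting interval of 17.8 to 172 (exact binomial, counting error only). The model put the log2 fold change at -5.34 with an SE of 1.17 (edgeR adjusted p = 0.046). The exact permutation test, two-sided, came to p = 0.1, its lowest possible value with 3 libraries against 3. The call was lost without shNS replicate 3 (edgeR adjusted p = 0.0661) and without shDis3l2 replicate 1 (0.134), 2 (0.182) or 3 (0.0809), although the log2 fold change stayed between -8.85 and -4.31. In bulk RNA, fewer cells with Nos2 and less Nos2 RNA per cell cannot be told apart.

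Without doxycycline Nos2 was almost silent in both lines, with 1 count in shNS and 0 in shDis3l2, where a count of 0 allows up to 0.0763 CPM. Within shNS, doxycycline therefore went with 167 counts in 3 libraries against 1 count in the untreated library, a ratio of 60.4 (95% counting interval 10.7 to 2400). The test across all 8 libraries did not call it (log2 effect 5.72, SE 2.08, edgeR adjusted p = 0.99), and the untreated arm is a single library. Although shNS replicate 2 lay beside the untreated shNS library on the first principal component, it had 26 Nos2 counts against 1, but 3 Arg2 counts against 3 and 142 Gch1 counts against 193. The library with the most Nos2, shNS replicate 3, also had the highest summed level of the 7 osteoclast markers, 157 CPM against 22.6 and 17 CPM in replicates 1 and 2, 23.3 to 46.4 CPM in shDis3l2 with doxycycline, and 5.3 and 36.7 CPM in untreated shNS and shDis3l2. Of that list Calcr, the calcitonin receptor, was the 1 marker at 0 in every library, and the part of these markers in the Nos2 level was not tested.

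The genes whose levels followed Nos2 most closely were ranked by the root mean square difference of centred log2 CPM over the 8 libraries, among 11696 genes with a mean count of at least 50. They were Stac2 (1.02), Fam198b (1.02), Basp1 (1.05), Unc13a (1.05) and Pmp22 (1.06), the last a membrane protein of myelin. Basp1 was at 74.7, 140.4 and 274.9 CPM in shNS with doxycycline, 45.9 CPM in untreated shNS and 8.58 to 18.2 CPM in the 4 shDis3l2 libraries. The ranking over the 6 doxycycline libraries alone shared 0 of these 5 genes, so the likeness changes with the libraries used.

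Gch1 (ENSMUSG00000037580, chromosome 14, 47153895 to 47189413, minus strand) encodes GTP cyclohydrolase, the rate-limiting enzyme of tetrahydrobiopterin synthesis. Its level was 8.75, 4.16 and 13.1 CPM in shNS with doxycycline and 18.5, 12.6 and 12.4 CPM in shDis3l2. The groups overlapped, since shNS replicate 3 lay above shDis3l2 replicates 2 and 3. The log2 fold change of 0.75 (SE 0.402) did not pass (edgeR adjusted p = 0.359). Untreated shNS was at 5.30 CPM and untreated shDis3l2 at 10.5 CPM, 1.99 times as high (95% counting interval 1.67 to 2.37).

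Its protein partner behaved differently. Gchfr (ENSMUSG00000046814, chromosome 2, 119167773 to 119172390), which encodes the feedback regulator that binds GTP cyclohydrolase, was at 1.76, 3.34 and 2.79 CPM in shNS with doxycycline and at 0.549, 0.379 and 0.295 CPM in shDis3l2. It fell by 2.67 on the log2 scale (SE 0.398, edgeR adjusted p = 0.0119), and every shDis3l2 value lay below every shNS value. The untreated libraries showed the same order, 2.47 CPM in shNS and 0.458 CPM in shDis3l2. Counted per kilobase of exon, Gch1 was at 0.512, 0.129 and 0.484 of the Gchfr level in shNS with doxycycline and at 3.49, 3.41 and 4.32 times it in shDis3l2. Gchfr was no longer called without either shDis3l2 replicate 2 (edgeR adjusted p = 0.0766) or 3 (0.0641). Of the 6 tested genes for tetrahydrobiopterin synthesis and recycling Gchfr was the 1 that passed, where 6.14% of all genes tested passed. Pts, the next enzyme after Gch1, came to 0.64 on the log2 scale without passing (edgeR adjusted p = 0.177), and Spr and Qdpr came to 0.19 and -0.072.

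Of the other nitric oxide genes 5 were tested and 0 passed by edgeR, where 6.14% of all genes tested passed. The median log2 fold change of the 5 was -0.47, beside -0.0023 over all genes tested. The smallest p in that list was that of Nostrin, which encodes a trafficking protein of the endothelial synthase. It was at 14.6, 13.0 and 13.9 CPM in shNS and 9.72, 8.29 and 7.74 CPM in shDis3l2 with doxycycline (log2 fold change -0.69, SE 0.161, edgeR adjusted p = 0.0525). Nos1, the neuronal synthase, was at 1.67, 3.37 and 2.39 CPM in shNS and 1.92, 1.63 and 1.80 CPM in shDis3l2, with overlapping groups (log2 fold change -0.47, edgeR adjusted p = 0.487). In untreated shNS it was at 4.70 CPM. Scaled by exon length, as described further on, the untreated shNS library had Nos1 at 1.07 and Nos2 at 0.0158, whereas shNS replicate 3 with doxycycline had them at 0.468 and 1.64.

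Arginine uptake was examined next. Slc7a2 (ENSMUSG00000031596, chromosome 8, 40862396 to 40922308, plus strand) encodes CAT2, the arginine transporter that activated macrophages add. It had 0 counts in all 8 libraries, which allows at most 0.0686 to 0.0945 CPM in a library. The related carrier gene Slc7a1, for CAT1, was at 188.6, 171.7 and 223.6 CPM in shNS with doxycycline and 286, 199.5 and 180.2 CPM in shDis3l2, with overlapping groups (log2 fold change 0.19, SE 0.204, edgeR adjusted p = 0.668). Of 6 tested transport genes 0 passed by edgeR, where 6.14% of all genes tested passed. The median log2 fold change of the 6 was -0.15, beside -0.0023 over all genes tested. Slc7a7, which with Slc3a2 forms a carrier that exports arginine from cells, had the smallest p. It was at 11.5, 13.0 and 22.2 CPM in shNS and 6.84, 6.04 and 8.13 CPM in shDis3l2 (log2 fold change -1.15, SE 0.276, edgeR adjusted p = 0.0565), and at 18.0 and 3.79 CPM in the untreated libraries. Slc38a9, a lysosomal arginine sensor, followed with -0.39 (edgeR adjusted p = 0.35).

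The pair of genes that rebuild arginine from citrulline differed from each other. Ass1 (ENSMUSG00000076441, chromosome 2, 31470207 to 31520672, plus strand) encodes argininosuccinate synthase, the first step. It was at 0.252, 0.0585 and 1.18 CPM in shNS replicates 1, 2 and 3 with doxycycline and at 2.97, 7.85 and 6.03 CPM in shDis3l2. Every shDis3l2 library lay above every shNS library, and the gene passed the filter on low counts through the shDis3l2 libraries. The model gave 3.49 on the log2 scale with an SE of 0.913 and missed the threshold (edgeR adjusted p = 0.0787), while the exact permutation p was 0.1. The miss depended on the test and on 1 library. With all doxycycline libraries kept, Ass1 passed by DESeq2 (adjusted p = 1.32e-04) and limma-voom (adjusted p = 0.0487). Without shNS replicate 3, the highest of the shNS values, the log2 fold change was 5.16 and passed (edgeR adjusted p = 0.0201). Without any other library the edgeR adjusted p ran from 0.0545 to 0.254. The untreated libraries had 18 counts in shNS and 72 in shDis3l2, which makes shDis3l2 3.70 times as high (95% counting interval 2.19 to 6.60). Within shDis3l2 the 3 doxycycline libraries together were at 2.95 times the untreated level (2.30 to 3.82, counting error only). That effect did not pass the test across libraries (log2 1.61, SE 1.32, edgeR adjusted p = 1).

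Reads of Ass1 are shared with a processed pseudogene, Gm5424 (ENSMUSG00000046687, chromosome 10, 62071123 to 62072362). The Ass1 coding sequence of 1236 bases aligned to it without a gap, with 6 different bases (99.5% identical) and a longest identical run of 398 bases, longer than a read of 150 bases. The stretch with the most differences, bases 310 to 429 of both the coding sequence and the pseudogene transcript, shows how little separates them. Capitals mark the bases that differ.
Ass1: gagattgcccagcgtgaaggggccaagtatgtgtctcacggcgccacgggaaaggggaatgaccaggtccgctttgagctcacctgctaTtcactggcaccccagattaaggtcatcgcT
Gm5424: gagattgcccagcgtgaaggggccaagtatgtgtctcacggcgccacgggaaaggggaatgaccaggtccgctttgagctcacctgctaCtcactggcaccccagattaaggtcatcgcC
The expected counts of the pair summed to whole numbers in all 8 libraries, 9, 2 and 41 in shNS with doxycycline, 131, 285 and 209 in shDis3l2, and 18 and 78 in the untreated shNS and shDis3l2 libraries. Testing the sums, an alternative added after the data were seen, gave a log2 fold change of 3.51 (SE 0.907, edgeR adjusted p = 0.0763). The difference was thus as large when the reads of both copies were put together.

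Asl (ENSMUSG00000025533, chromosome 5, 130011258 to 130029247, minus strand) encodes argininosuccinate lyase, the step after Ass1. It was at 17.2, 20.1 and 20.0 CPM in shNS with doxycycline and at 16.9, 14.4 and 13.0 CPM in shDis3l2. The groups did not overlap but nearly touched, and the log2 difference of -0.37 (SE 0.155) did not pass (edgeR adjusted p = 0.23). The untreated libraries were at 16.1 and 10.6 CPM (ratio 0.661, 95% counting interval 0.582 to 0.750). The length-scaled ratio of Asl to Ass1 was 35, 171.4 and 8.47 in shNS with doxycycline and 2.86, 0.913 and 1.08 in shDis3l2. The lyase RNA was thus far above the synthase RNA in shNS and closer to it in shDis3l2.

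Promoter sequence was at hand for 3 of the 8 genes, Ass1, Odc1 and Gch1, from RefSeq (GRCm38.p6). Those of Ass1 and Gch1 are shown because both genes had their highest levels in shDis3l2 libraries. Each stretch runs 5′ to 3′ on the gene's strand and ends just before the first annotated transcript base, at chr2:31470020-31470206 (plus strand) and chr14:47189414-47189663 (minus strand). Capitals mark matches, on either strand, to a loose NF-kB pattern (GGG, any 5 bases, CC) or to the TATA box TATAAA.
Ass1: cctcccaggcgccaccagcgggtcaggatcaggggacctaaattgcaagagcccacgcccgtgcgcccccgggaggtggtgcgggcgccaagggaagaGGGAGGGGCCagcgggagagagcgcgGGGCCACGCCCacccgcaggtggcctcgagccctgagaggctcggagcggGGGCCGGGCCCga
Gch1: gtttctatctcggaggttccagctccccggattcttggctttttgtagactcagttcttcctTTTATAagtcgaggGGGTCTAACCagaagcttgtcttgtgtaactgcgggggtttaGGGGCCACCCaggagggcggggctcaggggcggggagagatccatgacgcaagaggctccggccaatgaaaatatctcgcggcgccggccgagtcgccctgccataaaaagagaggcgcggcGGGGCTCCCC
The Ass1 stretch held 5 matches to the NF-kB pattern, some of them overlapping on opposite strands, and the Gch1 stretch held 3, with 1 TATA match. The pattern occurs in 50.79% and the TATA box in 13.62% of the 32851 promoter windows of 300 bases, so a match separates few genes. Neither stretch held the interferon-gamma activated site TTCNNNGAA (8.30% of windows), the interferon response core (GAAA, any 2 bases, GAAA; 3.44%), the octamer ATGCAAA (4.63%), the C/EBP pattern TTGCNNAA (10.80%), the hypoxia core ACGTG (19.62%) or the E-box CACGTG (7.15%), which contains the hypoxia core. The rest of the 300-base Ass1 window, past the annotated start, held 1 E-box. The 2 hypoxia core matches in the window were the 2 strands of that E-box, so they are 1 site.

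The arginases were near or below detection. Arg1 (ENSMUSG00000019987, chromosome 10, 24915221 to 24927484, minus strand), the cytosolic arginase and a classic marker of alternatively activated macrophages, had 7 counts in shNS replicate 2 with doxycycline and 1 count in untreated shNS. It had 0 counts in every other library, which allows at most 0.0686 to 0.0945 CPM. The pair of libraries with Arg1 reads was the same pair that stood apart on the first principal component. Arg2 (ENSMUSG00000021125, chromosome 12, 79130777 to 79156301, plus strand), the mitochondrial arginase, had 23, 3 and 42 counts in shNS with doxycycline and 6, 2 and 7 in shDis3l2. The untreated libraries had 3 and 2 counts. The groups overlapped through shNS replicate 2, and the exact permutation p on CPM was 0.3. Arg2 did not pass the filter in the reported fit. Without shNS replicate 2 it did, and was called lower in shDis3l2 (log2 fold change -2.82, edgeR adjusted p = 0.0292), whereas with all 8 libraries as 4 groups it was not (-2.30, edgeR adjusted p = 0.221). The ratio of summed counts, shDis3l2 over shNS with doxycycline, was 0.199 (95% counting interval 0.105 to 0.351). Arg2 shares 285 bases of exon with Vti1b and 116 with the antisense gene Gm48780, both on the opposite strand, and the strand setting of the counting is not given in the sources used here. Vti1b was highest in the library with the most Arg2, at 66.2 CPM in shNS replicate 3 against 34.7 to 46.3 CPM in the other libraries, and its part in the Arg2 counts was not tested. Arg2 and Nos2 both had their highest count in shNS replicate 3, but replicate 2 had 26 Nos2 counts and 3 Arg2 counts.

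Odc1 (ENSMUSG00000011179, chromosome 12, 17544794 to 17551505, plus strand) encodes ornithine decarboxylase, which starts polyamine synthesis. By length-scaled level it was the most abundant of the 8 genes in every library. In CPM it was at 96.7, 164 and 204.9 CPM in shNS with doxycycline and 152.9, 155.3 and 184.7 CPM in shDis3l2. The shNS values enclosed the shDis3l2 values. The log2 difference of 0.09 (SE 0.261) did not pass (edgeR adjusted p = 0.901) and turned to -0.14 without shNS replicate 1, the lowest library. The untreated libraries were at 154 and 143.5 CPM.

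The genes that steer Odc1 showed 1 call. Oaz2 (ENSMUSG00000040652, chromosome 9, 65668001 to 65690300), an antizyme whose protein targets ornithine decarboxylase for degradation, was at 23.9, 15.5 and 20.0 CPM in shNS and 42.5, 32.5 and 34.0 CPM in shDis3l2 with doxycycline. It rose by 0.88 on the log2 scale (SE 0.197, edgeR adjusted p = 0.0461). The call was lost without any one of 5 of the 6 libraries, all but shNS replicate 1 (edgeR adjusted p up to 0.124), and with scaling by library size alone (0.051). Its neighbourhood moved with it: the 68 tested genes within 5 Mb had a median log2 fold change of 0.49, with 14 higher and 1 lower, and the part of this region in the Oaz2 value was not tested. For the tested arginine genes the medians of such neighbours lay between -0.083 and 0.042. On the log2 scale Oaz1, another antizyme, differed by 0.47 (edgeR adjusted p = 0.222) and Azin1, an antizyme inhibitor, by -0.17 (0.794). Of 18 tested polyamine genes 1 rose, 0 fell and 17 did not pass by edgeR, with a median of 0.14. Among all genes tested 2.13% rose and 4.01% fell. Srm, spermidine synthase, was at 0.013 and Amd1, which supplies the aminopropyl donor, at 0.16, neither past the test.

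The list for ornithine, proline, citrulline and creatine had 11 tested genes, of which 1 fell. That was Glul (ENSMUSG00000026473, chromosome 1, 153899944 to 153909723), glutamine synthetase, at 57.5, 38.8 and 47.2 CPM in shNS and 25.9, 24.3 and 21.01 CPM in shDis3l2 with doxycycline (log2 fold change -1.01, SE 0.177, edgeR adjusted p = 0.0205). The untreated libraries were at 56.5 and 24.8 CPM, and the call was lost without any one shDis3l2 replicate (edgeR adjusted p up to 0.0988). Oat, which links ornithine to proline and glutamate, differed by -0.22 in log2 terms (edgeR adjusted p = 0.421). Over the 5 metabolic lists together, 46 genes were tested, 1 rose and 2 fell, where 2.13% of all genes tested rose and 4.01% fell. Their median log2 fold change was 0.02 beside -0.0023 over all genes.

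**Figure D2:**
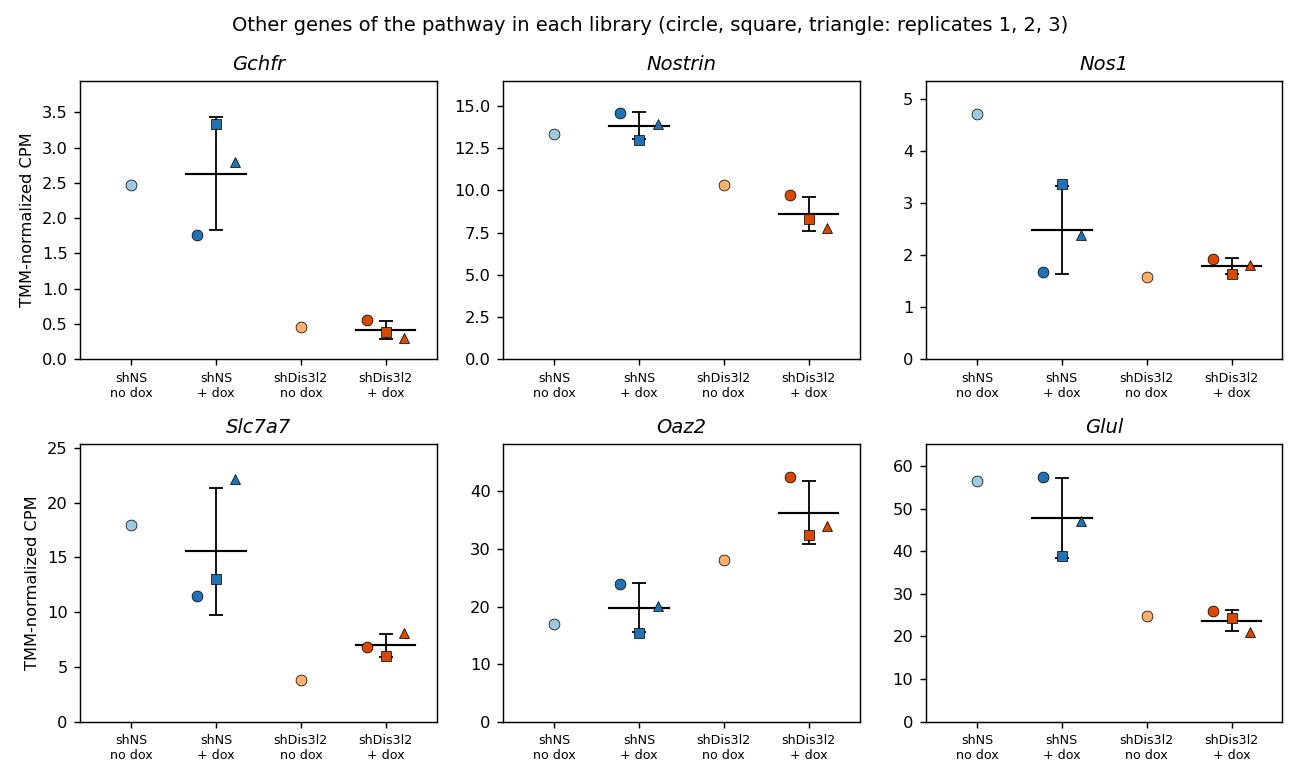
TMM-normalized CPM (y axis, a linear scale of its own in each panel) of Gchfr, Nostrin, Nos1, Slc7a7, Oaz2 and Glul in each of the 8 libraries (x axis, by line and doxycycline), with mean and SD where there are 3 libraries. Gchfr and Glul are lower and Oaz2 is higher in shDis3l2 with and without doxycycline, while Nos1 overlaps between the doxycycline groups.

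Levels of different genes were set side by side only per kilobase of merged exons, scaled to the same total in each library. In shNS with doxycycline the order of the means was Odc1 (103 ± 31.4), Asl (9.03 ± 0.330), Gch1 (3.16 ± 1.55), Arg2 (1.07 ± 0.866), Nos2 (0.826 ± 0.704), Ass1 (0.457 ± 0.538), Arg1 (0.069 ± 0.12) and Slc7a2 at 0 (SD, n = 3). Odc1 and Asl stood clear of the rest in all 3 libraries. The ranges of Gch1, Arg2 and Nos2 overlapped, as did those of Arg2, Nos2 and Ass1, and Arg1 overlapped Arg2 and Ass1 through replicate 2, so the order below Asl is not resolved. In shDis3l2 it was Odc1 (119.5 ± 27.8), Asl (7.415 ± 0.0477), Ass1 (5.88 ± 2.93), Gch1 (5.58 ± 0.609), Arg2 (0.235 ± 0.151) and Nos2 (0.0246 ± 0.0426), with Arg1 and Slc7a2 at 0. There Ass1 overlapped both Asl and Gch1. With the longest transcript in place of merged exons the means of Asl, Odc1 and Gch1 moved by more than 1 SD, to 15.4, 136 and 4.81 in shNS with the same order. In shDis3l2 Gch1 then came before Ass1 (8.43 and 7.07).

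**Figure D3:**
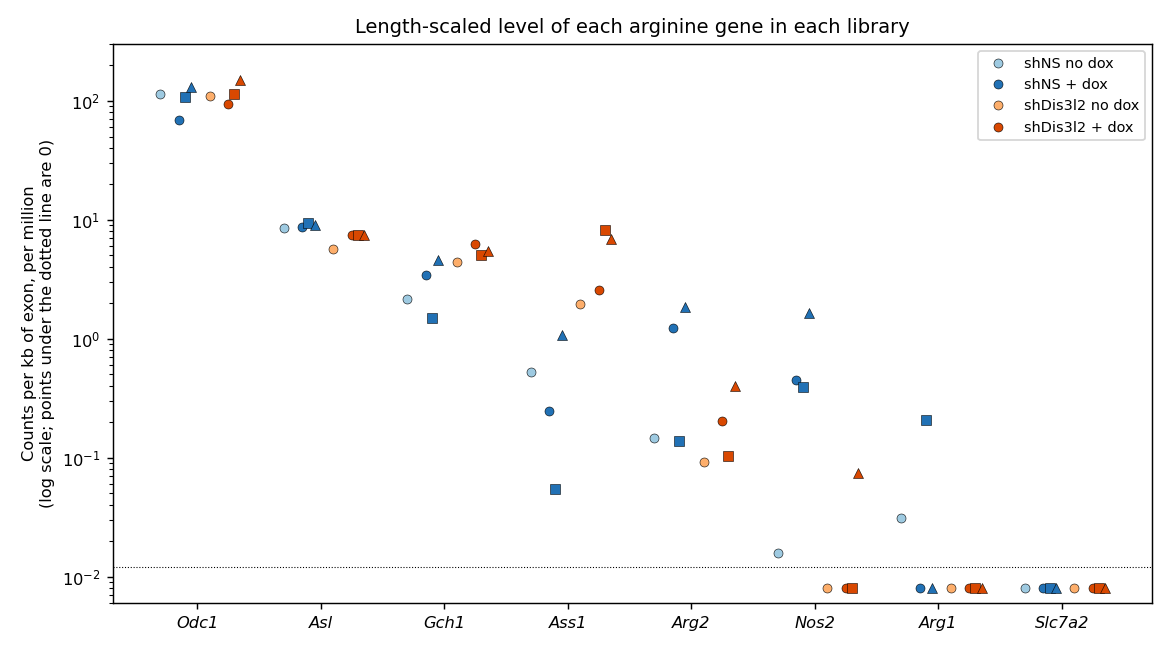
Level scaled by merged exon length, in counts per kilobase set to the same total in each library (y axis, log scale), of each arginine gene (x axis) in each library, coloured by line and doxycycline, with marker shapes for replicates; points under the dotted line are 0. Odc1 lies above 69 in every library, Asl, Gch1 and Ass1 come close together in shDis3l2, and Nos2 is at 0 in 3 of the 4 shDis3l2 libraries.

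Genes known to drive Nos2 were compared with it. Most of the 16 tested were not called, among them Ifngr1, Jak1, Irf1, Irf8, Myd88, Rela, Hif1a and Cebpb. Among all genes tested 6.14% were called. Nfkb1, an NF-kB subunit, was at 118, 103.6 and 149.8 CPM in shNS and 193.7, 244.4 and 219.3 CPM in shDis3l2 with doxycycline, and rose (edgeR adjusted p = 0.0379). Tlr4, the lipopolysaccharide receptor, was at 152.7, 216.6 and 185.6 CPM in shNS and 103, 92.8 and 114.5 CPM in shDis3l2, and fell (edgeR adjusted p = 0.031). Nfkb1 lost its call without shNS replicate 1 or 2, Tlr4 without shNS replicate 2 or 3, and both without any one shDis3l2 replicate (edgeR adjusted p up to 0.176). Untreated, Nfkb1 stood at 139.5 CPM in shNS and 224 CPM in shDis3l2, and Tlr4 at 219.2 and 113.3 CPM, so both differences were present without doxycycline.

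Markers of classical macrophage activation, the state that Nos2 defines, split in direction. Of 11 tested 2 rose and 2 fell, where 2.13% of all genes tested rose and 4.01% fell. The chemokine gene Cxcl10 was at 0.378, 0.0585 and 0.259 CPM in shNS and 33.1, 24.4 and 17.5 CPM in shDis3l2, and rose (edgeR adjusted p = 0.00192). Cxcl11 had 0 counts in shNS with doxycycline and 600 in shDis3l2, at least 60-fold higher against a floor of 3 counts per library. Of the costimulatory genes Cd86 fell by 3.32 (edgeR adjusted p = 0.0044), and Cd80 fell by 3.43 on the same log2 scale (0.0171), losing its call without shDis3l2 replicate 3 (0.0885). In the doxycycline libraries Nos2 thus fell as Cd80 and Cd86 did, while Cxcl10 and Cxcl11 rose. Nos2 and Cd86 passed the filter on low counts through the shNS libraries, and Cxcl10 and Cxcl11 through the shDis3l2 libraries. Cd40, another costimulatory gene, was at 1.95, 0.117 and 2.13 CPM in shNS and 13.0, 10.1 and 8.98 CPM in shDis3l2. It thus lay higher in shDis3l2, against Cd80 and Cd86, but was not called. The groups overlapped for the chemokine gene Ccl5, and Cxcl9 was at most at 0.0886 CPM in a library. Il6 and Il12b, other products of classical activation, were too low to be tested. The untreated libraries showed the same directions for Cxcl10, Cxcl11, Cd86 and Cd80, whereas Nos2 had only 1 count in shNS and 0 in shDis3l2. Cxcl10 was at 0.275 CPM in shNS and 4.75 CPM in shDis3l2, Cxcl11 at 0.0549 and 0.356 CPM, Cd86 at 3.49 and 0.127 CPM, and Cd80 at 18.3 and 0.432 CPM.

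Among alternative activation markers, the state that Arg1 defines, 6 were tested, 2 fell and 0 rose by edgeR. The shares over all genes tested were 4.01% lower and 2.13% higher. Of the 6, 1 had a positive log2 fold change, Socs1, which was not called. It was at 0.441, 0.673 and 0.576 CPM in shNS and 1.51, 1.08 and 1.24 CPM in shDis3l2 with doxycycline. Untreated, it was at 0.439 CPM in shNS and 1.04 CPM in shDis3l2. Mrc1, the mannose receptor, was at 12.2, 2.58 and 6.62 CPM in shNS and 0.617, 1.02 and 0.709 CPM in shDis3l2 with doxycycline (log2 fold change -3.19, edgeR adjusted p = 0.0244). Mgl2, a lectin, had 123 counts in shNS and 1 in shDis3l2, at 0.00732 of the shNS level (95% counting interval 1.84e-04 to 0.0415; edgeR adjusted p = 0.0214). Of 11 tested genes that induce Arg1 or act with its inducers 1 fell, Tfec, a transcription factor, which had 0 counts in shDis3l2 with doxycycline and 765 in shNS, at least 94.4-fold lower against the same floor (edgeR adjusted p = 0.0216). Mgl2 and Tfec passed the filter on low counts through the shNS libraries alone. The calls of Mrc1, Mgl2 and Tfec were each lost without any one shDis3l2 replicate, and that of Tfec without shNS replicate 1 as well (edgeR adjusted p up to 0.115). Untreated, all 3 were also lower in shDis3l2: Mrc1 at 2.55 CPM in shNS and 0.330 CPM in shDis3l2, Mgl2 at 0.330 and 0.0508 CPM, and Tfec at 2.88 and 0 CPM.

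**Figure D4:**
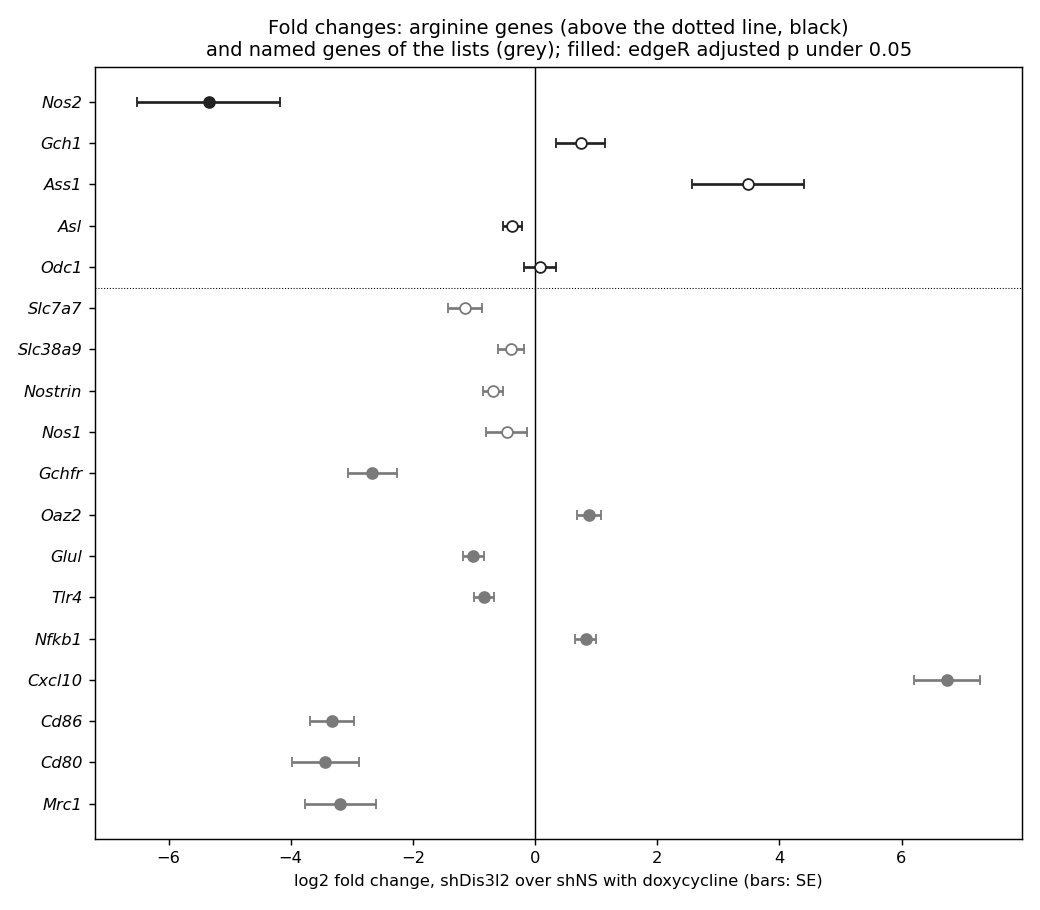
Log2 fold change of shDis3l2 over shNS with doxycycline (x axis, bars give SE) for the 5 tested arginine genes and the genes of the lists named in the text (y axis); filled points passed an edgeR adjusted p of 0.05, and Tfec, Cxcl11 and Mgl2, with 0 or 1 counts in a group, are left out. Nos2 lies at -5.34 and Ass1 at 3.49 with wide bars, and Odc1 at 0.09.

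The effect of doxycycline within each line was tested across all 8 libraries. Of the 6 arginine genes tested there (Arg2 added) 0 were called in shNS, 0 in shDis3l2 and 0 for the difference between the lines, where 0 of 15250 genes (0%) were called in any of the 3 comparisons by edgeR. At an unadjusted p under 0.05 there were 646, 504 and 577 genes, and 1, 0 and 0 of the 6, the 1 being Nos2 in shNS. DESeq2 called 72, 64 and 34 genes (0.472, 0.420 and 0.223%) and 0 of the 6, but gave Arg2 no adjusted p in shNS, where 5 of the 6 could be called. Of the 6, 0 were called either without the low-count filter (0.00898, 0 and 0.00898% of genes), with limma-voom (0.00656% in shNS) or without shNS replicate 2 (3.59% in shNS and 0.798% for the difference). The fitted effects of all 6 genes were positive in both lines, with medians of 0.48 in shNS and 0.91 in shDis3l2 beside 0.012 and 0.0039 over all genes. In shNS they ran from 0.01 for Odc1 (SE 0.376) to 5.72 for Nos2, with Arg2 at 2.98 (SE 1.55). The signs of Odc1 and Ass1 in shNS were not stable. In shDis3l2 they ran from 0.20 for Odc1 (SE 0.38) to 3.54 for Nos2 (SE 3.51), a value that rests on 4 counts in 1 library against none. The difference between the lines was -2.19 for Nos2, with an SE of 14.6, so these libraries do not resolve whether doxycycline went with Nos2 in 1 line more than in the other.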

How the data were processed

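Total RNA libraries of RAW264.7 cells were made with a stranded kit that removes ribosomal RNA and sequenced from both ends for 150 nt, per the labels' protocols. Cutadapt, STAR 2.7, RSEM and the builds GRCm38 and mm10 appear in the submitters' processing notes. Annotation release and strand setting were not given in the sources used here. As deposited, the table holds the authors' expected counts per gene for 55450 genes, not normalized. RSEM divides reads among genes of shared sequence.

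Expected counts were rounded, which changed 4.68 to 5.24% of values. Genes passing edgeR's filterByExpr (minimum count 10) were scaled by TMM and tested two-sided with edgeR's quasi-likelihood test and Benjamini-Hochberg adjustment over all genes at 0.05 (R 4.3.3, edgeR 4.0.16). The 6 doxycycline libraries gave the line comparison. All 8 libraries as 4 groups, with 4 residual degrees of freedom, gave the doxycycline effects, the lone untreated libraries being assumed to vary like the others. DESeq2 1.42.0, limma-voom (limma 3.58.1), other scalings and filters, a replicate block and leaving out each doxycycline library were alternatives. Intervals are exact binomial at 95% and cover counting error only, and a count of 0 was read as allowing up to 3 counts. The test was checked on simulated counts, with a single fixed spread and changes set only in well-counted genes. That check does not cover genes as low as Nos2 or as variable as these libraries. All replicate pairs differed by more than counting noise, so none was treated as 1 library deposited more than once, which does not show that they are separate cultures.

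The genes and lists were chosen with earlier results of these data known. Named are Dis3l2, the 8 genes, the genes of each list past the threshold (up to 6; where none passed, the 2 of smallest p) and the 5 genes most like Nos2. Other genes were named after their values were seen. The result of 1 gene that this rule names is not reported here.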

Additional observations from a re-analysis of the deposited data

How the results depend on the processing

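Depth limits the low genes: Nos2, Arg1, Arg2 and Slc7a2 had at most 115 counts in a library, and 1 library can decide their values. The fold changes of Nos2, Ass1, Asl and Gch1 between the lines kept their sign under every alternative run. The number of genes called was 845 as reported, 1748 with DESeq2, 1480 for the line effect over all 8 libraries with doxycycline as a covariate, and 203 to 1157 without 1 library. The number of arginine genes called was 1 as reported. It was 2 with DESeq2 and limma-voom, and 0 without the low-count filter or with all 8 libraries as 4 groups, where the edgeR adjusted p of Nos2 was 0.0657 and 0.0585. It was 0 with a filter of 1 CPM in 3 libraries, which removes Nos2, and 0 to 2 without 1 library. Of the pathway list genes 13 were called, 20 with DESeq2 and 4 to 13 without 1 library. In the same fits 6.14%, 12.7% and 1.44 to 8.24% of all genes tested were called.

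For doxycycline in shNS, 2 genes were called without the low-count filter, 72 with DESeq2, 1 with limma-voom and 0 to 544 without 1 library, the highest without shNS replicate 2. In shDis3l2 it was 64 with DESeq2 and 0 to 0 without 1 library. The difference between the lines gave 2 genes without the filter, 34 with DESeq2 and 0 to 121 without 1 library. Near 0, signs turned, and the cause was not tested. In shNS the doxycycline effect was -0.042, -0.011 and -0.82 for Ass1 and -0.033, -0.012 and -0.058 for Odc1 with library size alone, no filter and limma-voom, and -1.68 to 0.52 and -0.25 to 0.26 without 1 library. Without 1 library the difference between the lines ran from -0.066 to 0.44 for Odc1 and from -0.57 to 0.19 for Gch1, the line difference of Odc1 from -0.14 to 0.33, and the Nos2 effect in shDis3l2 from 0 to 4.13. The 6 doxycycline libraries alone gave 0 of the 5 genes most like Nos2.

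The replicate number as a block gave 421 genes (3.06% of all tested) and 8 list genes, and called Nos2 (edgeR adjusted p = 0.037) but not Gchfr (0.0585). Deviations of same-numbered libraries correlated at -0.122, 0.0208 and -0.006, and those of differently numbered libraries at up to 0.101. The values thus show no pairing by number. Deviations from means of 3 libraries cannot tell whether same-numbered samples shared a culture or a preparation.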
